A study of Mus musculus with 18 samples.

Results

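The mRNAs described here encode 10 proteins of the integrated stress response, a translational programme of animal cells. They were taken from the deposited gene table by name, as Atf3, Atf4, Atf5, Ddit3, Ppp1r15a, Ppp1r15b, Cebpb, Cebpg, Trib3 and Chac1. All 10 of 10 were among the 34745 genes of the table, and all 10 were among the 12782 genes that passed the filter on low counts. RNA was sequenced from macrophages grown out of mouse bone marrow with 20 ng/ml of macrophage colony-stimulating factor for 6 days. Every culture, the wild-type ones included, then received 100 ng/ml of lipopolysaccharide (LPS) for 8 h, so the libraries hold no untreated cells and the effect of LPS itself was not measured. The labels name the genotypes as wildtype (WT) and Mkrn2 knockout (KO), with no allele given. Mkrn2 encodes an RNA-binding E3 ubiquitin ligase. For each genotype there were 3 libraries of total RNA, 3 of the polysome fraction and 3 of the monosome fraction, 18 libraries in 6 groups. The labels give no strain, age or sex of the mice and do not say whether the libraries of a group came from separate animals or cultures. P-values therefore measure the spread between these libraries, which may be technical.

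Phosphorylation of the initiation factor eIF2 lowers the supply of initiating ribosomes and slows most translation, while a small set of mRNAs is translated more. Many of those mRNAs carry short reading frames in the leader that precedes the coding region. In the textbook case of Atf4, ribosomes that have translated an early upstream frame restart at a later one that overlaps the coding region when initiation factors are plentiful, and scan past it to the coding start when they are scarce. In Ddit3 and Ppp1r15a an upstream frame holds ribosomes back until stress lets them pass. In macrophages these proteins shape the response to microbial products, with Atf3 acting as a brake on cytokine genes and Cebpb as an activator of them. A polysome is an mRNA with several ribosomes and a monosome fraction holds mRNAs with a lone ribosome, so an mRNA whose ribosomes sit mostly on a short upstream frame can be in the monosome fraction. Sedimentation does not show where on the mRNA a ribosome sits.

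The upstream frames of the group are shown first because they are what the mRNAs are known for. They were read from the GENCODE M21 transcripts of the GRCm38 mouse genome, for 1 principal transcript a gene. Only frames that start with ATG were searched for. Each line gives the 6 bases before an upstream start codon, the start codon in capitals and the 4 bases after it, 5′ to 3′.
Atf4 frame 1: tctctcATGgggc
Atf4 frame 2: gccaccATGgcgt
Atf4 frame 3: taagccATGgcgc
Atf5 frame 1: cgcgcaATGgctc
Atf5 frame 2: gccgccATGgagt
Atf3 frame: ggggtgATGcaac
Ddit3 frame 1: tatatcATGttga
Ddit3 frame 2: ttgaagATGagcg
Ppp1r15a frame 1: tggacgATGttgg
Ppp1r15a frame 2: gattacATGcgat
Ppp1r15a frame 3: ggcgacATGaacc
Ppp1r15b frame 1: cggcgaATGacgt
Ppp1r15b frame 2: ttctctATGgtgg
Ppp1r15b frame 3: gccgggATGgacc
Cebpg frame: aggtacATGtgaa
Of the 10 mRNAs, 7 (70.0%) had at least 1 upstream ATG in this transcript, against 50.6% of the 11601 tested genes with an annotated coding transcript. Of the 15 frames, 10 had an A or G at position -3 from the ATG, and 5 had in addition a G directly after it, a context that favours initiation in vertebrates. Frames 2 and 3 of Atf4 and both frames of Atf5 were among these 5, with frame 3 of Ppp1r15b. The context of upstream ATGs over all tested genes was not counted, so these counts have no background beside them.

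In the chosen transcripts Atf4 and Atf5 share an arrangement that the other members lack. In each, a very short frame precedes a long one that runs across the coding start in another reading frame. The short frames are printed whole, with start and stop codon in capitals.
Atf4 frame 2, whole: ATGgcgtatTAG
Atf5 frame 1, whole: ATGgctctgTAG
Each has 3 codons. The overlapping frame of Atf4 has 59 codons, starts 97 bases before the coding start and reaches 83 bases into the coding region. That of Atf5 has 58 codons, starts 121 bases before the coding start and reaches 56 bases in. Such an overlapping frame was present in the chosen transcript of 2 of the 10 members and of 15.9% of all tested genes with a coding transcript. The leader of Atf4 has 594 bases, and 94.8% of those genes had a leader of that length or shorter.

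In the other members with an upstream ATG all frames of the chosen transcript ended inside the leader. Ddit3 has a frame of 34 codons with a second ATG in the same frame, which leaves 31 codons, and the stop lies before the coding start. The single frame of Atf3 has 25 codons and the 3 of Ppp1r15a have 45, 34 and 26. Ppp1r15b has frames of 2, 8 and 51 codons, and the frame of Cebpg is a start codon followed directly by a stop. The 3 shortest of these are printed whole.
Ppp1r15b frame 1, whole: ATGacgTGA
Ppp1r15b frame 2, whole: ATGgtggagcgatctcacacggccTAG
Cebpg frame, whole: ATGTGA
The leaders of Cebpb, Trib3 and Chac1, 107, 176 and 174 bases, held no ATG. Cebpb is known instead for a small frame just inside its coding region, which lies between the first in-frame ATG and the second one at codon 22 and takes part in the choice between the long and short C/EBPβ proteins.
Cebpb internal frame, whole: ATGcctcccgccgccgcccgccgccttTAG
This frame has 9 codons and ends 4 bases before the ATG of codon 22. A further in-frame ATG at codon 152 starts the stretch of 145 codons that corresponds to the short protein. The count of upstream ATGs depends on the transcript chosen, since other complete transcripts held 6 in Atf5, 7 in Ppp1r15a and 4 in Cebpg. Of the 7 in Ppp1r15a, 1 opened a frame that overlaps the coding start, as in Atf4 and Atf5. Which transcript these macrophages use was not measured.

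The deposited table, whose genome build is not named, places Atf4 (ENSMUSG00000042406) at chr15:80255184-80257540 on the plus strand, Atf5 (ENSMUSG00000038539) at chr7:44812256-44816599 on the minus strand and Atf3 (ENSMUSG00000026628) at chr1:191170296-191218039 on the minus strand. It places Ddit3 (ENSMUSG00000025408) at chr10:127290774-127296288 on the plus strand, Cebpb (ENSMUSG00000056501) at chr2:167688915-167690418 on the plus strand and Cebpg (ENSMUSG00000056216) at chr7:35046422-35056573 on the minus strand. The phosphatase subunit genes are Ppp1r15a (ENSMUSG00000040435) at chr7:45522916-45526268 on the minus strand and Ppp1r15b (ENSMUSG00000046062) at chr1:133131143-133139783 on the plus strand. The downstream genes are Trib3 (ENSMUSG00000032715) at chr2:152337422-152344032 on the minus strand and Chac1 (ENSMUSG00000027313) at chr2:119351229-119354381 on the plus strand. The counts cover whole genes, exons of leader, coding region and 3′ end together.

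**Figure D1:**
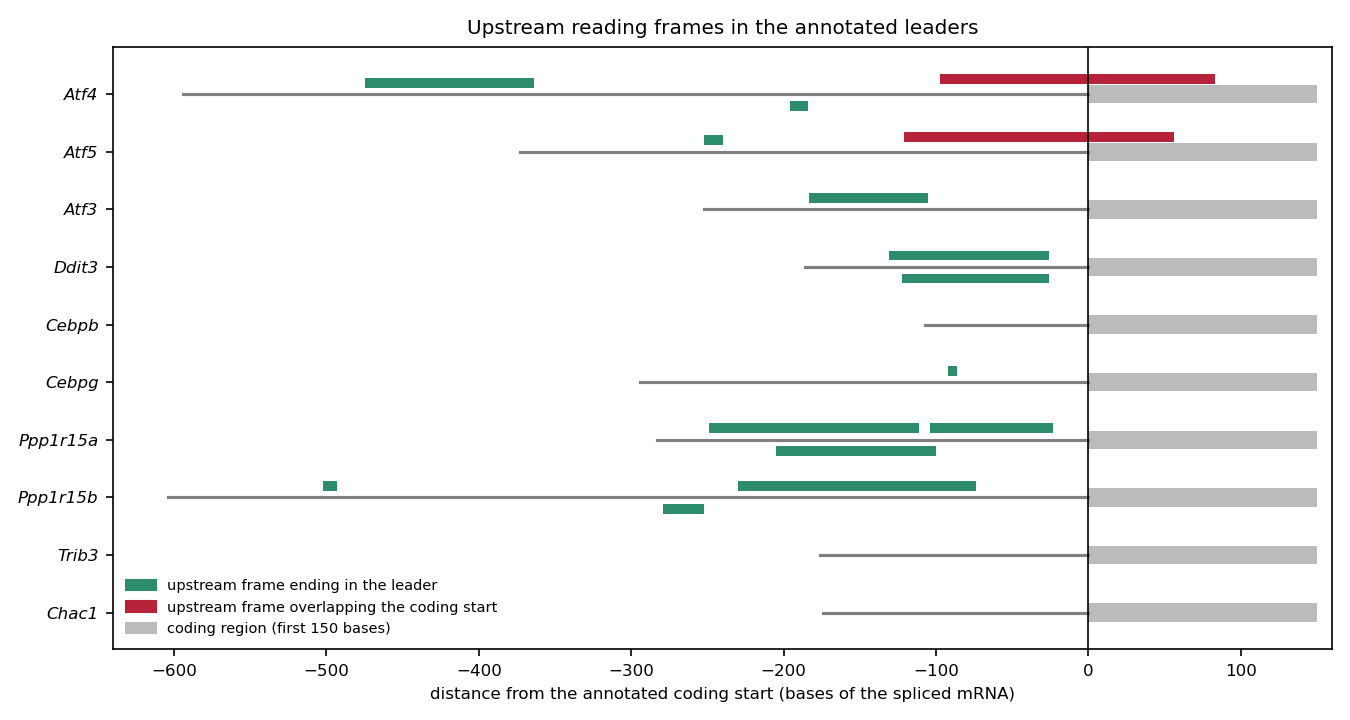
Upstream reading frames of the 10 mRNAs along the spliced leader, with distance from the annotated coding start in bases on the horizontal axis and 1 mRNA per row. Thin lines are leaders, green bars are frames that end in the leader, red bars are frames that overlap the coding start and grey bars are the first 150 bases of coding region. In the chosen transcripts only Atf4 and Atf5 have a red bar, and Cebpb, Trib3 and Chac1 have no frame that starts with ATG.

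Depth was lowest in the monosome libraries, with some overlap with total RNA. The libraries of whole-cell RNA held 11402715 to 16711558 counts, the polysome libraries 13006294 to 15759370 and the monosome libraries 9190034 to 12606314. A single gene, Fth1 (ferritin heavy chain), made up 15.2% to 18.5% of each monosome library but 1.78% to 3.29% of any other. Levels are given as CPM after TMM scaling, which limits the weight of such a gene. The TMM factors were 0.605 to 0.664 for monosome libraries and 1.24 to 1.299 for the rest. How much of this gap comes from Fth1 was not tested. On this scale 1 count stood for 0.128 to 0.164 CPM in monosome libraries and 0.0475 to 0.0697 CPM in the rest. All 8 macrophage markers were detected in every group, including Adgre1, Csf1r and Cd68. The knockout label was checked on Mkrn2, which stood at 66.9, 59.7 and 66.3 CPM in WT and 53.7, 57.0 and 60.6 CPM in KO-labelled total RNA, with overlapping groups. KO-labelled total RNA held 0.888 times the WT level (adjusted p = 0.85, edgeR quasi-likelihood F test with Benjamini-Hochberg adjustment over 12782 genes), 0.901 times in polysome RNA (adjusted p = 0.79) and 0.772 times in monosome RNA (adjusted p = 0.086). How the allele was made is not given in the sources used here, so counts over the whole gene do not test the label, and the libraries are called KO-labelled. All values are from bulk RNA, in which fewer cells of a type and less RNA per cell cannot be told apart.

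Per length, Cebpb, Atf3 and Atf4 were the most abundant of the 10 mRNAs and Chac1 the least. In WT total RNA the deposited FPKM were 285 ± 52.5 for Cebpb, 275 ± 12.7 for Atf3 and 261 ± 15.4 for Atf4 (mean ± SD, n = 3), and the ranges of neighbours in this order overlapped. Ppp1r15b followed at 61.3 ± 3.87 FPKM and Ddit3 at 38.2 ± 3.72 FPKM. Ppp1r15a, at 18.6 ± 3.54 FPKM, and Atf5, at 17.95 ± 1.94 FPKM, overlapped. Cebpg stood at 5.08 ± 0.285 FPKM, Trib3 at 3.79 ± 0.183 FPKM and Chac1 at 2.52 ± 0.0715 FPKM, each below the range of the one before it. The group thus ran from abundant regulators down to Chac1, which had 46 to 52 counts in each WT total library.

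Atf4, the central transcription factor of the pathway, was higher in polysome than in total RNA. In WT it stood at 362, 331 and 374 CPM in total RNA, 634, 531 and 587 CPM in polysome RNA and 544, 593 and 646 CPM in monosome RNA. In KO-labelled libraries the values were 422, 393 and 362 CPM in total, 673, 679.6 and 566 CPM in polysome and 646, 702 and 610.2 CPM in monosome RNA. In both genotypes every polysome library lay above every total library. Polysome and total libraries did not overlap, in either direction, in 51.6% of all genes in WT and 49.6% in KO-labelled libraries. That background applies to each member below as well. On this scale the monosome libraries also lay above the total ones and overlapped the polysome ones, but on the deposited FPKM, which carry no scaling between libraries, the mean monosome level was 0.836 times the total level in WT and 0.819 times in KO-labelled libraries. Polysome RNA held 1.64-fold the level of total RNA in WT (95% interval 1.43 to 1.89, adjusted p = 6.381e-05) and 1.63-fold in KO-labelled libraries (1.42 to 1.87, adjusted p = 8.577e-05).

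Atf5, the related factor with the same layout of upstream frames, gave a similar picture at a lower level. Its WT values were 40.1, 46.7 and 49.3 CPM in total, 88.5, 78.8 and 88.9 CPM in polysome and 84.3, 106 and 113 CPM in monosome RNA. Its KO-labelled values were 53.7, 51.3 and 43.3 CPM in total, 82.8, 91.6 and 73.6 CPM in polysome and 76.2, 110.6 and 96.4 CPM in monosome RNA. Total RNA was again below polysome RNA with no overlap. On the TMM scale it was also below monosome RNA, while on the deposited FPKM total and monosome RNA overlapped, with mean monosome-to-total ratios of 1.11 in WT and 0.938 in KO-labelled libraries. The polysome level was 1.88-fold the total level in WT (1.53 to 2.32, adjusted p = 0.0002003) and 1.67-fold in KO-labelled libraries (1.36 to 2.06, adjusted p = 0.001059). Whether Atf4 and Atf5 differ from each other was not tested, and their intervals overlapped.

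Ddit3, which encodes the pro-apoptotic factor CHOP, was the member most concentrated in the monosome fraction. In WT it stood at 65.7, 65.2 and 77.2 CPM in total, 99.0, 90.5 and 85.4 CPM in polysome and 370.1, 446 and 453 CPM in monosome RNA. In KO-labelled libraries it stood at 74.1, 71.4 and 64.9 CPM in total, 88.8, 93.7 and 81.9 CPM in polysome and 371, 374 and 388 CPM in monosome RNA. On the TMM scale all 3 fractions were apart in both genotypes, in the order total, polysome, monosome. The mean monosome level was 6.10 times the mean total level in WT and 5.39 times in KO-labelled libraries, ratios that are 3.05 and 2.65 on the deposited FPKM. Polysome RNA held 0.216 times the monosome level in WT (0.189 to 0.248, adjusted p = 7.58e-11) and 0.233 times in KO-labelled libraries (0.203 to 0.268, adjusted p = 1.058e-10). It also held 1.32-fold the total level in WT (1.15 to 1.52, adjusted p = 0.003934) and 1.26-fold in KO-labelled libraries (adjusted p = 0.01369), the latter call being lost without KO total replicate 3 (adjusted p = 0.071) or KO polysome replicate 2 (adjusted p = 0.064).

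Atf3, the stress-induced repressor of inflammatory genes, had the same order of fractions on the TMM scale with smaller steps. The WT values were 589, 542 and 538 CPM in total, 712, 649.6 and 667 CPM in polysome and 987, 986 and 988 CPM in monosome RNA, and the KO-labelled values were 598, 536 and 532, 735, 677 and 672, and 1031, 1069.6 and 1121 CPM. On this scale no fractions overlapped in either genotype, whereas on the deposited FPKM the mean monosome level was 0.889 times the total level in WT and 0.953 times in KO-labelled libraries. Polysome RNA held 0.685 times the monosome level in WT (0.623 to 0.753, adjusted p = 3.187e-06) and 0.647 times in KO-labelled libraries (adjusted p = 6.168e-07). Without scaling between libraries this direction turned, as given with the fraction counts below.

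Cebpb, a bZIP factor that drives macrophage cytokine genes, lay highest in the polysome fraction. Its WT levels were 274, 395 and 345 CPM in total, 653, 654 and 686 CPM in polysome and 302, 376 and 413 CPM in monosome RNA. Its KO-labelled levels were 475, 378 and 354 CPM in total, 669, 648 and 602 CPM in polysome and 299.7, 376 and 362 CPM in monosome RNA. Every polysome library exceeded every total and every monosome library of its genotype, and total and monosome overlapped on the TMM scale (on FPKM the mean monosome level was 0.536 and 0.422 times the total level). The polysome level was 1.96-fold the total level in WT (1.60 to 2.42, adjusted p = 0.0001197) and 1.59-fold in KO-labelled libraries (adjusted p = 0.002153). It was 1.83-fold the monosome level in WT (adjusted p = 8.288e-05) and 1.85-fold in KO-labelled libraries (adjusted p = 6.203e-05). Cebpg, a partner of ATF4 in binding its target genes, stood at 27.4 to 35.4 CPM over all 18 libraries on the TMM scale. Neither polysome against total nor polysome against monosome RNA passed the threshold. Without scaling its polysome level was above the monosome level, by 0.9995 on the log2 scale in WT (adjusted p = 1.545e-08) and 1.16 in KO-labelled libraries (adjusted p = 2.463e-09).

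The eIF2 phosphatase subunits direct protein phosphatase 1 to reverse the phosphorylation. Ppp1r15b, the constitutive subunit also called CReP, stood at 293, 282 and 319.9 CPM in WT total, 259, 266 and 289 CPM in WT polysome and 123, 107 and 109 CPM in WT monosome RNA. The KO-labelled values were 299.9, 296 and 323, 299.6, 271 and 304, and 116, 93.4 and 117 CPM. Monosome libraries lay below all others, and total and polysome overlapped. Its polysome level was 2.40-fold the monosome level in WT (2.10 to 2.75, adjusted p = 1.644e-08) and 2.68-fold in KO-labelled libraries (adjusted p = 4.238e-09). Ppp1r15a, the stress-induced subunit GADD34, varied widely among libraries of a group: 63.3 to 91.5 CPM in WT total, 96.0 to 136 CPM in WT polysome, 66.8 to 94.9 CPM in WT monosome, and 48.2 to 117 CPM over the 9 KO-labelled libraries. Its polysome-to-monosome difference in WT, 1.53-fold (1.06 to 2.22), had an adjusted p of 0.0505, just above the threshold of 0.05. That call was gained under 6 other settings, among them DESeq2 (adjusted p = 0.031), and without WT polysome replicate 1 or WT monosome replicate 2.

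The mRNAs of the downstream genes were scarce. Trib3 encodes a pseudokinase that restrains ATF4 and AKT signalling, and stood at 9.62, 9.83 and 8.997 CPM in WT total, 11.8, 10.7 and 11.1 CPM in WT polysome and 3.61, 8.30 and 5.72 CPM in WT monosome RNA. Its KO-labelled values were 11.1, 10.2 and 8.23, 15.5, 14.1 and 11.7, and 10.04, 4.95 and 6.79 CPM. The monosome libraries spread more than the others, from 22 to 76 counts, and lay below the polysome libraries in both genotypes. The polysome-to-monosome ratio was 1.88 in WT (1.298 to 2.71, adjusted p = 0.005749) and 1.89 in KO-labelled libraries (adjusted p = 0.003926). Chac1, which encodes a glutathione-degrading enzyme, stood at 3.21, 3.34 and 3.23 CPM in WT total, 5.79, 4.13 and 4.49 CPM in WT polysome and 3.45, 2.90 and 4.29 CPM in WT monosome RNA, the last from 21 to 30 counts. In KO-labelled libraries it stood at 4.24, 4.46 and 4.49 CPM in total, 5.94, 6.57 and 4.74 CPM in polysome and 4.49, 5.47 and 4.99 CPM in monosome RNA. The WT polysome and monosome libraries overlapped. Its polysome-to-monosome ratio in WT of 1.36 (1.04 to 1.76, adjusted p = 0.046) passed the threshold narrowly. The call was lost under 4 other settings and without any of 4 of the 6 libraries, namely WT monosome replicate 2 (adjusted p = 0.24), WT polysome replicate 1 (0.22), WT monosome replicate 1 (0.097) or WT polysome replicate 3 (0.051).

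**Figure D2:**
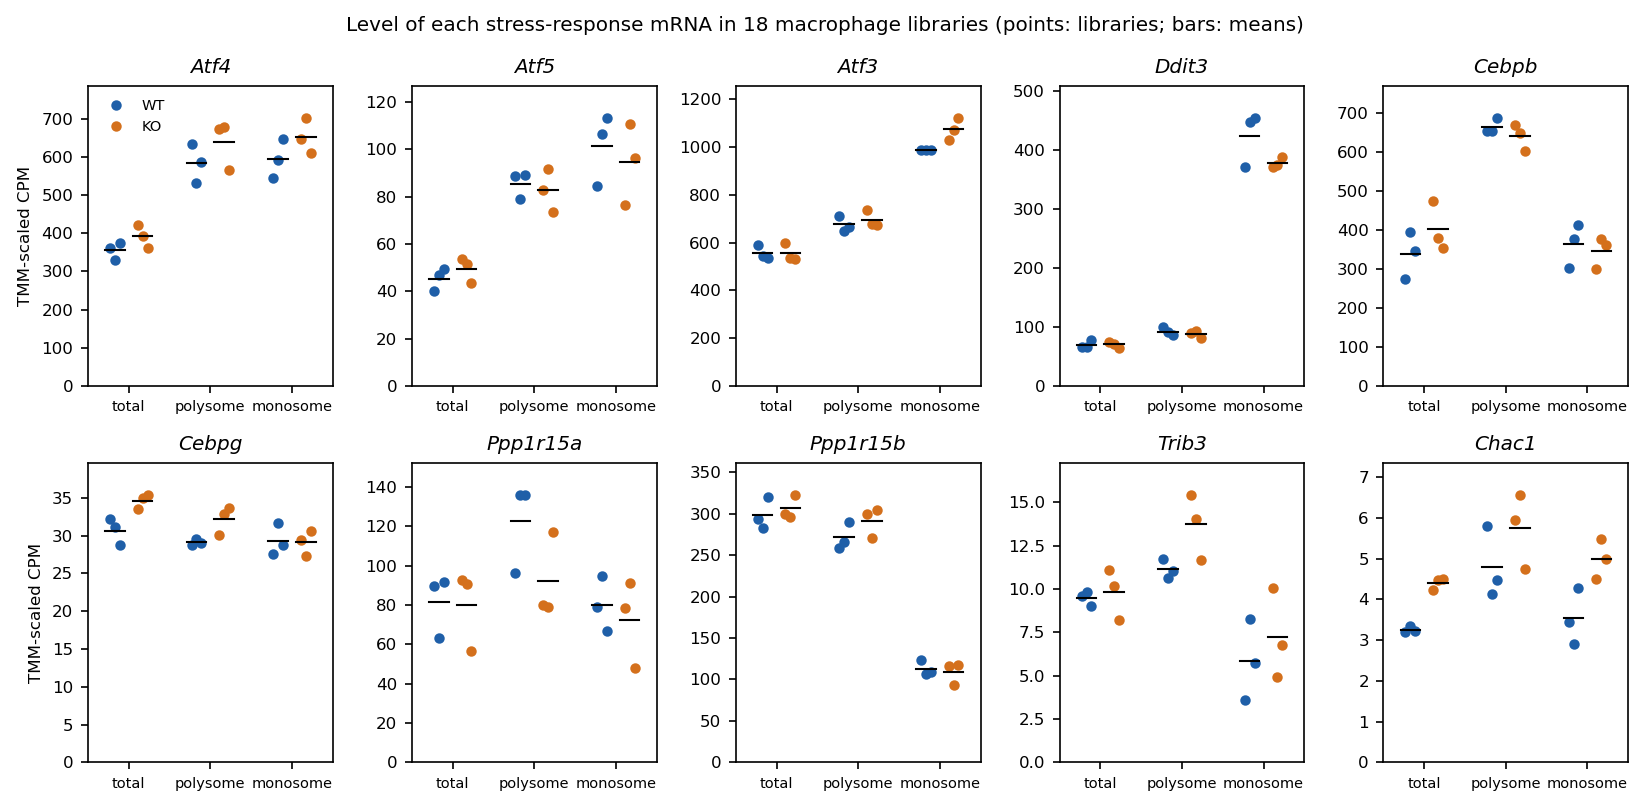
Level of each of the 10 mRNAs (vertical axis, TMM-scaled CPM from 0, a scale of its own in each panel) in total, polysome and monosome RNA, with 1 point per library, WT in blue and KO-labelled in orange, and a bar at each mean of 3. Ddit3 and Atf3 stand highest in monosome RNA, Cebpb in polysome RNA, and Ppp1r15b is lowest in monosome RNA; the height of monosome points against the others rests on the scaling.

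Against monosome RNA, the 10 mRNAs spread in both directions. In WT 4 were higher in polysome RNA (Ppp1r15b, Trib3, Cebpb and Chac1), 2 were lower (Ddit3 and Atf3) and 4 did not pass the threshold. Of all 12782 genes tested, 55.2% passed, 26.2% higher and 29% lower, so 6 of 10 is near the background. In KO-labelled libraries 3 were higher (Ppp1r15b, Trib3 and Cebpb) and 2 lower (Ddit3 and Atf3), against 58.1% of all genes (28.6% higher, 29.5% lower). In WT 6 members had polysome and monosome libraries that did not overlap, Ppp1r15a in place of Chac1 among them, against 60.2% of all genes. In KO-labelled libraries there were 5, against 63.5%. The median log2 difference of the members was 0.21 in WT, beside 0.01 over all genes.

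These directions rest on the scaling between libraries. With library totals alone the median log2 difference of all genes moved from 0.01 to 1.02 in WT. It moved from 0.03 to 1.04 in KO-labelled libraries. Of the members 9 were then called higher in polysome RNA and only Ddit3 lower in each genotype. Of all 12782 genes 9221 were higher and 729 lower in WT, and 9237 and 786 in KO-labelled libraries. Atf3, Atf4 and Atf5, in WT also Cebpg, changed sign. Relative to the median of all genes the members hardly moved: Ddit3 lay 2.21 below it in WT under both scalings on the log2 scale, Atf3 0.55 and 0.56 below, and Ppp1r15b 1.26 and 1.25 above. Of all genes, 1.68% lay at or below Ddit3 in WT and 2.25% in KO-labelled libraries. In the order of the 10 mRNAs Ddit3 stood apart, with an interval that met no other in either genotype, while the interval of Atf3 overlapped that of Atf5 above it in both.

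Against total RNA, the members that passed were all higher in polysome RNA. In WT these were 6, Cebpb (log2 difference 0.97 ± 0.14 SE), Atf5 (0.91 ± 0.14), Atf4 (0.72 ± 0.10), Chac1 (0.56 ± 0.16), Ddit3 (0.40 ± 0.09) and Atf3 (0.28 ± 0.06), where 33% of all genes passed and 16.5% were higher. In KO-labelled libraries 5 passed, namely Atf5 (0.74 ± 0.14), Atf4 (0.70 ± 0.10), Cebpb (0.67 ± 0.14), Ddit3 (0.33 ± 0.09) and Atf3 (0.32 ± 0.06), where 31.9% of all genes passed and 16% were higher. Of the 6 transcription factors 5 were higher in each genotype, with Cebpg as the exception, and neither phosphatase subunit passed. Under other settings Ppp1r15a passed in WT (adjusted p = 0.034 with voom, 0.039 with the compared groups alone), Trib3 in KO-labelled libraries (0.00869 and 0.045) and Chac1 in KO-labelled libraries (0.012 with voom, 0.0235 without KO polysome replicate 3). The call for Chac1 in WT was lost without WT polysome replicate 1 (adjusted p = 0.086). In WT 8 members had polysome and total libraries that did not overlap, against 51.6% of all genes. In KO-labelled libraries there were 7, against 49.6%. All of these members were higher in polysome RNA, as were 3163 of all 12782 genes in WT and 3056 in KO-labelled libraries. The median of the 10 was 0.48 in WT and 0.36 in KO-labelled libraries, where all genes had -0.02 in both. This comparison was little affected by scaling, as the factors of total and polysome libraries were alike.

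Taking both ratios, Atf3 and Ddit3 were lower in polysome than in monosome RNA and higher in polysome than in total RNA. That combination was found in 918 genes in WT (7.18% of those tested) and 968 in KO-labelled libraries (7.57%). Cebpb was higher in polysome RNA on both counts in each genotype, as were 501 genes (3.92%) in WT and 475 (3.72%) in KO-labelled libraries. Chac1 passed both in WT. The pair of ratios shares the polysome libraries, so they are not independent, and the first combination does not hold for Atf3 without scaling.

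**Figure D3:**
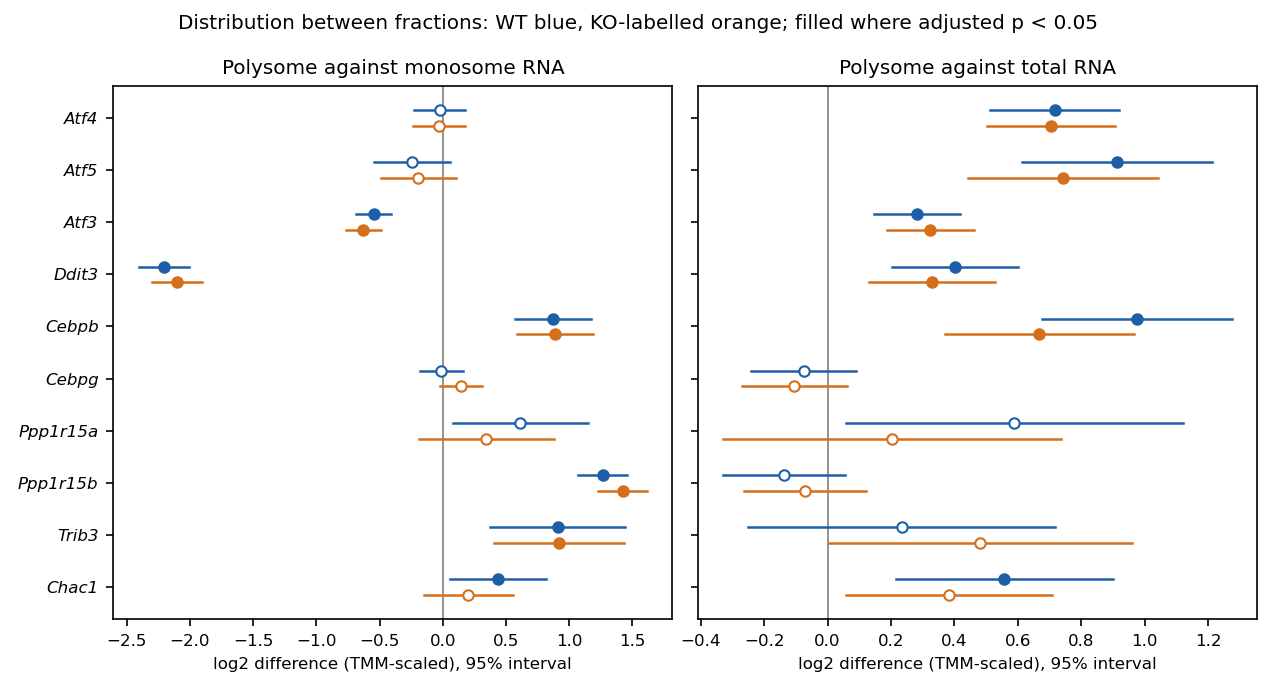
Log2 difference of polysome against monosome RNA (left) and against total RNA (right) on the TMM scale for each of the 10 mRNAs, WT in blue and KO-labelled in orange, with 95% intervals and filled points where adjusted p is below 0.05. Ddit3 lies at -2.21 in WT on the left and above 0 on the right; without scaling the median of all genes on the left moves from 0.01 to 1.02 in WT, and Atf3, Atf4, Atf5 and, in WT, Cebpg change sign.

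Coding length went along with the fraction an mRNA was found in. Over the 11601 tested genes with a coding transcript, the median log2 difference of polysome against monosome RNA in WT was -0.43 in the shortest of 4 classes of coding length (75 to 834 bases), then -0.13, 0.13 and 0.44 in the longest (2163 to 26397 bases). Ddit3 with 504 coding bases, Atf3 with 543, Cebpg with 450 and Chac1 with 669 belong to the shortest class. Within it, 81 of 2905 genes (2.79%) lay at or below Ddit3 in WT and 112 (3.86%) in KO-labelled libraries. Atf3, by contrast, stood near the middle of that class, with 44.1% of the genes at or below it in WT. Within their own classes Ppp1r15b (2091 coding bases) stood at 93.7% and Trib3 (1062 bases) at 90.4%. For polysome against total RNA in WT, Cebpb stood at 99.1%, Atf5 at 98.6%, Ppp1r15a at 95.9% and Atf4 at 95.7% of their own class. Chac1 stood at 72.5%, Trib3 at 70.6%, Ddit3 at 58.7%, Ppp1r15b at 47.2%, Atf3 at 46.6% and Cebpg at 17.9%. The shortest class had a median of 0.31 there, so Ddit3 and Atf3 lay near the middle of it. In KO-labelled libraries Atf5 stood at 96.9%, Atf4 at 95.9%, Cebpb at 95.3%, Ppp1r15a at 79.1%, Ddit3 at 49.8% and Atf3 at 49.3%. Genes with an upstream ATG had a median polysome-to-monosome log2 difference of 0.12 in WT and genes without one of -0.06. In the shortest class the medians were -0.42 and -0.43. In the following classes they were -0.05 and -0.21, 0.21 and 0.05, and 0.47 and 0.38 in the longest. Of the 3 members without an upstream ATG, 3 were higher in polysome than in monosome RNA in WT and 2 in KO-labelled libraries. Among these calls, that for Chac1 in WT was the narrow one described above. Of the 7 with one, 1 was higher and 2 were lower in each genotype. Over all genes 26.2% were higher and 29% lower in WT, and 28.6% and 29.5% in KO-labelled libraries. Without scaling 3 of the 3 without one and 6 of the 7 with one were higher in each genotype, and 1 was lower. Of all 12782 genes 9221 were then higher and 729 lower in WT, and 9237 and 786 in KO-labelled libraries. Coding length, leader length and expression differ together between genes, and their parts in these differences were not tested.

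**Figure D4:**
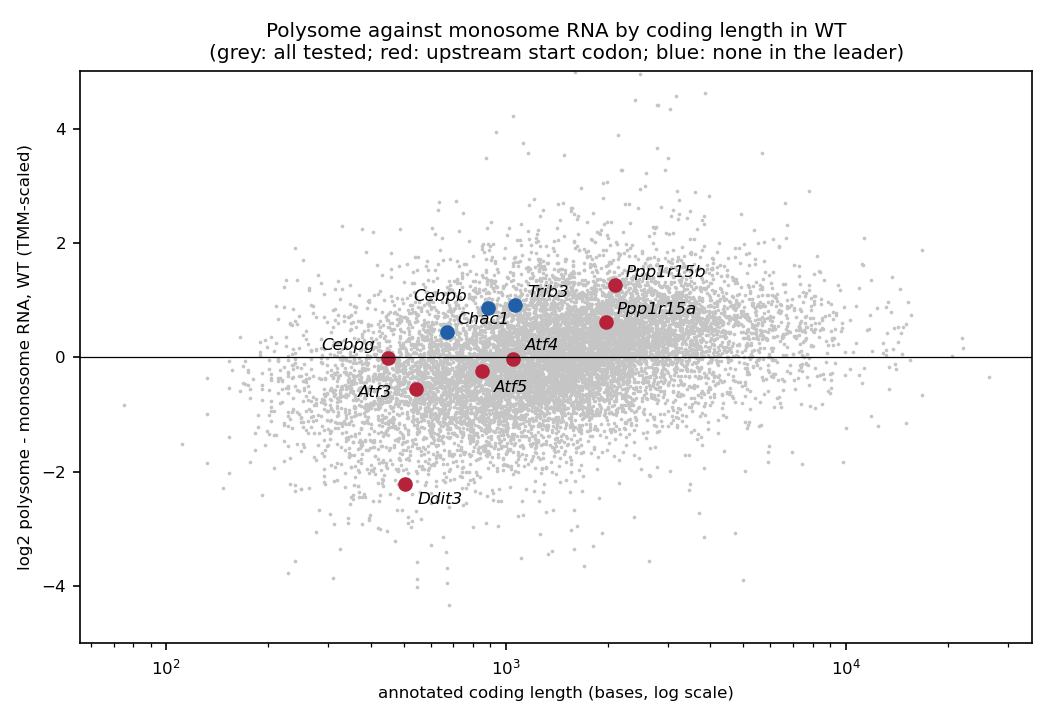
Log2 difference of polysome against monosome RNA in WT (vertical axis, TMM-scaled) against annotated coding length in bases (horizontal axis, log scale) for tested genes in grey and the 10 mRNAs in colour, red with and blue without an upstream start codon; 20 of 11601 genes lie beyond the axis limits of -5 and 5. Ddit3 lies low among genes of its length and Atf3 amid them; without scaling the median of all genes moves from 0.01 to 1.02, which turns the sign of Atf3, Atf4, Atf5 and Cebpg.

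Between genotypes none of the 10 mRNAs passed the threshold in any fraction. In total RNA the lowest adjusted p among them was 0.66, in polysome RNA 0.79 and in monosome RNA 0.32 (edgeR), where 0.0156%, 0.0156% (0.00782% each way) and 0.25% (0.125% each way) of all genes passed. At an unadjusted p under 0.05 in the same edgeR model there were 2 members in total RNA, Chac1 and Cebpg, 0 in polysome RNA and 1 in monosome RNA, Chac1. Of all genes 5.84%, 6.99% and 11.7% reached that level, so 1 of 10 in monosome RNA is near the background. DESeq2 and voom with quality weights likewise called 0 of the 10 in each fraction. Chac1 showed the largest total-RNA difference, with WT at 3.21, 3.34 and 3.23 CPM and KO-labelled libraries at 4.24, 4.46 and 4.49 CPM. In monosome RNA it stood at 3.45, 2.90 and 4.29 against 4.49, 5.47 and 4.99 CPM. The groups did not overlap in either, as was the case for 13.6% and 12.5% of all genes. Its fitted ratio was 1.35 (1.06 to 1.71) in total and 1.41 (1.07 to 1.86) in monosome RNA. Cebpg, the other member without overlap in total RNA, stood at 32.1, 31.1 and 28.7 CPM in WT and 33.5, 34.998 and 35.4 CPM in KO-labelled libraries. In polysome RNA Cebpg (14.9% of all genes) and in monosome RNA Atf3 were the remaining members without overlap.

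The intervals show how precisely the genotype ratios were fitted, given the spread between these libraries, which may be technical. They were taken gene by gene without adjustment and do not bound a difference between animals. In total RNA the fitted ratios of the 10 ran from 0.982 to 1.35 and 9 intervals lay wholly within a 1.5-fold change either way. For Atf4 the ratio was 1.10 (0.958 to 1.27) in total, 1.09 (0.951 to 1.26) in polysome and 1.10 (0.954 to 1.26) in monosome RNA. For Ddit3 it was 1.01 (0.881 to 1.16), 0.962 (0.839 to 1.10) and 0.892 (0.779 to 1.02). In polysome RNA 8 of 10 intervals lay within 1.5-fold and in monosome RNA 7 of 10. Among the wide ones were those of Ppp1r15a, with 0.751 (0.520 to 1.08) in polysome RNA, and Trib3, with 1.22 (0.825 to 1.80) in monosome RNA. A value that missed the threshold does not show that the genotypes were equal.

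**Figure D5:**
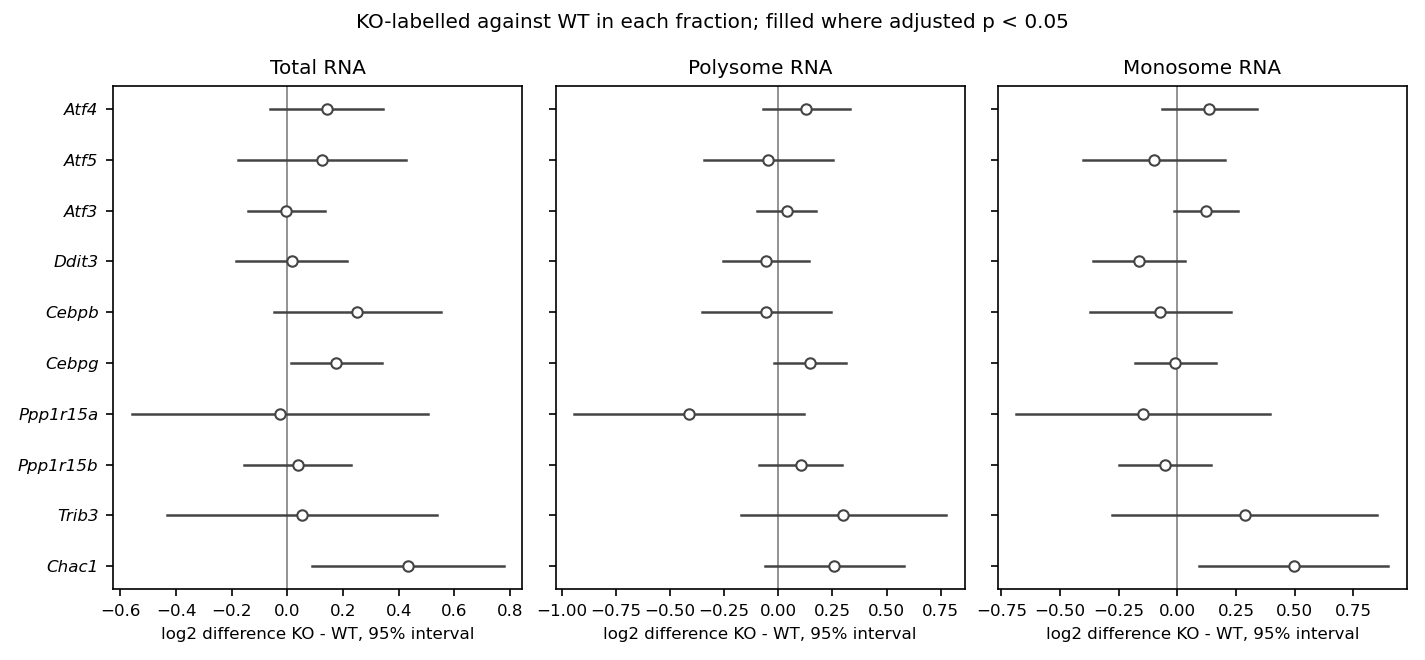
Log2 difference of KO-labelled against WT libraries for each of the 10 mRNAs in total, polysome and monosome RNA (panels, each with its own scale), with 95% intervals of the edgeR fit over 3 libraries a group. All points are open since none passed an adjusted p of 0.05, and Chac1 lies to the right of 0 with its interval in total and monosome RNA.

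The distribution between fractions was also compared between genotypes, as the difference of a ratio. None of the 10 passed for the polysome-to-monosome ratio (lowest unadjusted p 0.18) or the polysome-to-total ratio (lowest unadjusted p 0.14), where 0.0548% (0.0469% higher, 0.00782% lower) and 0% of all genes passed. For Ddit3 the polysome-to-monosome ratio in KO-labelled libraries was 1.08 times that in WT (0.888 to 1.31), and for Atf4 0.996 times (0.817 to 1.22). For the polysome-to-total ratio the values were 0.952 (0.783 to 1.16) and 0.992 (0.813 to 1.21). The intervals of 7 and 5 members lay within 1.5-fold. Over all genes the polysome-to-total ratio gave 0 calls with edgeR, 229 genes at an unadjusted p under 0.05, 3 calls with DESeq2 and 1 with voom.

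The wider pathway showed no change between genotypes that passed the threshold. Of 23 tested target genes of ATF4 and CHOP (of 25 listed), 0 passed in any fraction, 19 lay above 0 in total RNA with a median log2 difference of 0.14, 18 in polysome RNA with a median of 0.18 and 17 in monosome RNA with a median of 0.20, beside medians of all genes of 0.01, 0.01 and -0.01. Slc7a11, the cystine transporter, and Gdf15, a stress-induced cytokine, had the smallest p of the list in total RNA, at log2 differences of 0.58 ± 0.12 (adjusted p = 0.18) and 0.34 ± 0.14 (adjusted p = 0.73). In polysome RNA Slc7a11 stood at 0.60 ± 0.12 (adjusted p = 0.10). Of the 4 eIF2 kinases and Eif2s1, which encodes the phosphorylated subunit, 0 of 5 passed, and Eif2ak2, the kinase PKR, had the smallest p in total and polysome RNA at 0.20 ± 0.09 (adjusted p = 0.81) and 0.25 ± 0.09 (adjusted p = 0.51). Of 15 tested relatives (of 17 listed) 0 passed, with Jdp2 at -0.45 ± 0.13 in total RNA (adjusted p = 0.45), and of 7 other mRNAs with described upstream frames 0 passed.

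Between fractions these lists held genes of both directions. Of the 23 target genes 6 were higher and 5 lower in polysome than in monosome RNA in WT, with a median log2 difference of 0.00 beside 0.01 over all genes. Ddit4, an mTORC1 inhibitor, stood at 1.26 ± 0.20 (adjusted p = 4.099e-05) and the amino acid transporter Slc7a1 at 0.85 ± 0.12 (adjusted p = 2.099e-05), while Nupr1, a small stress protein, stood at -3.56 ± 0.13 (adjusted p = 3.258e-11) and Eif4ebp1, a repressor of cap-dependent translation, at -1.12 ± 0.11 (adjusted p = 3.376e-07). Of the other mRNAs with described upstream frames 5 of 7 were higher and 2 lower in WT, and 3 higher and 2 lower in KO-labelled libraries, beside the 26.2% and 28.6% of all genes that were higher. By size Ibtk stood highest at 1.54 ± 0.29 (adjusted p = 0.0002845), and Eprs, a tRNA synthetase whose chosen transcript held 0 upstream ATGs, had the smallest p at 0.99 ± 0.10 (adjusted p = 9.094e-07). Mdm2, the p53 ubiquitin ligase, stood at -0.83 ± 0.11 (adjusted p = 9.599e-06). Of the kinases Eif2ak4 (GCN2) was higher at 0.98 ± 0.18 (adjusted p = 0.0002003) and Eif2ak1 at 0.40 ± 0.08 (adjusted p = 0.0004283), and Eif2s1 was lower at -1.16 ± 0.10 (adjusted p = 6.191e-08). Without scaling the targets gave 18 higher and 1 lower in WT, beside 9221 and 729 of all 12782 genes. The other upstream-frame mRNAs gave 5 and 0, and the kinases and Eif2s1 gave 4 and 0. Mdm2 and Azin1 changed sign, to 0.17 and 0.35, without passing. Among the targets Mthfd2 went from lower at -0.32 to higher at 0.68 and Slc3a2 from lower at -0.37 to higher at 0.64, and among the relatives Ppp1ca went from lower at -0.63 to higher at 0.38 and Batf changed sign to 0.16. Nupr1 at -2.55 and Chac2 at -0.63 stayed lower, and Eif4ebp1 and Eif2s1 no longer passed. Of the relatives 4 were higher and 3 lower (11 and 1 without scaling); Chac2, which encodes the other glutathione-degrading enzyme of this family, stood at -1.63 ± 0.16 (adjusted p = 6.288e-07) where Chac1 stood at 0.44 ± 0.18.

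Against total RNA 2 of the 23 targets were higher and 4 lower in WT, where 16.5% of all genes passed each way. Gdf15 was higher in polysome RNA at 0.93 ± 0.14 (adjusted p = 0.0001214) and Eif4ebp1 at 0.66 ± 0.11 (adjusted p = 0.0002792). Slc7a1 was lower at -0.83 ± 0.11 (adjusted p = 6.381e-05) and Asns, the asparagine synthetase gene, at -0.73 ± 0.13 (adjusted p = 0.0007521). Of the kinases and Eif2s1 0 were higher and 3 lower, with Eif2s1 at -0.45 ± 0.09 (adjusted p = 0.001952) and the kinase gene Eif2ak3 at -0.64 ± 0.20 (adjusted p = 0.023). Among the relatives 5 were higher and 1 lower, with Cebpd, a C/EBP factor of the inflammatory response, at 0.89 ± 0.15 (adjusted p = 0.0003868) next to 0.97 for Cebpb, and Batf at 0.61 ± 0.09 (adjusted p = 9.94e-05). Of the other upstream-frame mRNAs 1 was higher, Amd1 at 0.35 ± 0.10 (adjusted p = 0.017), and 2 were lower. In KO-labelled libraries the targets gave 2 higher and 5 lower, and the kinases and Eif2s1 gave 0 and 2. The relatives gave 5 and 1 there and the other upstream-frame mRNAs 1 and 1. Of all genes 16% were higher and 15.8% lower in those libraries.

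Over the 18 libraries, the genes whose log2 CPM ran most like that of Atf4 were Dusp28 (Pearson r = 0.984), Gm10146 (0.983), BC029722 (0.981), 2010111I01Rik (0.979) and Tomm22 (0.977), among 9554 genes averaging 50 counts or more. These libraries fall into 3 fractions and 2 genotypes, so the values describe a shared distribution over groups and carry no test.

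Markers of other cells were low beside those of macrophages and 0 of the tested ones differed between genotypes past the threshold. The 8 macrophage markers summed to 4896 to 5632 FPKM in WT and 5365 to 5407 FPKM in KO-labelled total RNA. The 8 stromal markers summed to 66.7 to 80.4 and 78.3 to 86.7 FPKM in total, 36.6 to 46.9 and 47.9 to 54.0 FPKM in polysome and 51.3 to 62.3 and 59.5 to 64.9 FPKM in monosome RNA. Of the 7 tested stromal markers 6, 6 and 7 lay higher in KO-labelled libraries, with median log2 differences of 0.37, 0.45 and 0.50, and 0 passed the threshold. Neutrophil markers summed to at most 14.1 FPKM, B cell markers to at most 2.78, dendritic cell markers to at most 0.834 and T and NK cell markers to at most 0.649 FPKM in any library. Their part in the small genotype differences of Chac1 and the target genes was not tested.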

How the data were processed

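The 10 mRNAs, the gene lists and the tests were chosen with earlier results of these data known. Per the labels, RNA came from whole lysate and from fractions of a polysome profile, and libraries from a SMARTER mRNA kit; strand is not stated, so antisense reads cannot be told apart. Upstream tools were StringTie 1.3.0, HISAT2 2.0.4 and fastp 0.23.2, per the submitters' processing notes, and their roles and the genome build are not given in the sources used here. The authors deposited raw counts per gene, and beside them FPKM. The deposited FPKM equal counts divided by a gene length and the column total (implied lengths differed by at most 0.0702% over 9535 genes) and were used for levels between genes, for summed markers and, untested, for ratios between fractions without scaling.

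The tests ran in edgeR 4.0.16 under R 4.3.3: filterByExpr by group, TMM scaling, 1 mean for each of 6 groups over 18 libraries, and the two-sided quasi-likelihood F test (prior degrees of freedom 3.41), adjusted by Benjamini-Hochberg over 12782 genes, threshold 0.05. Intervals are 95% Wald intervals. For 9 comparisons the alternatives were RLE factors, no scaling, no filter, a mean of at least 5 CPM, the compared groups alone, the replicate number as a block, DESeq2 1.42.0, voom (limma 3.58.1) and leaving out each library. The scripts were tested on simulated data. Correlations used log2(CPM + 0.5).

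Upstream frames came from GENCODE M21 transcripts (APPRIS principal, then support level, then length). Of the table's genes, 34267 were found there by identifier and 80.8% of these had identical coordinates; all 10 members lay on the same chromosome. Named are the members, Mkrn2, the genes most like Atf4 and, of each list, up to 4 called each way by smallest p or else the 2 of smallest p, of which the text gives the leading ones. Figures were drawn with matplotlib 3.10.9.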

Additional observations from a re-analysis of the deposited data

How the results depend on the processing

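Counts of members past the threshold moved by over 1.5 times only without scaling, to 10 in WT and 10 in KO-labelled libraries for polysome against monosome RNA, from 6 and 5. There the share of higher calls among all called genes went from 47.4% to 92.7% in WT and from 49.2% to 92.2% in KO-labelled libraries, and in KO against WT monosome RNA from 50% to 31.2%. Without scaling the polysome-to-monosome log2 differences turned to 0.46 (Atf3), 0.98 (Atf4), 0.77 (Atf5) and 0.9995 (Cebpg) in WT and 0.39, 0.98 and 0.82 (Atf3, Atf4, Atf5) in KO-labelled libraries. The other sign changes were of values that passed under neither setting. In polysome against monosome RNA these were Atf4 at 0.0665 (WT) and 0.0607 (KO-labelled) and Cebpg at 0.0811 (WT) with no filter, Atf4 at 0.0088 and Cebpg at 0.0238 with the compared groups alone, and Cebpg at 0.0089 with RLE factors and 0.0061 with DESeq2 (WT). Between genotypes they were Cebpg in monosome RNA at 0.0022 and the Trib3 polysome-to-monosome ratio at -0.0083 with the compared groups alone, Atf3 in total RNA at 2e-04 with the stricter filter, and with voom Ppp1r15a in total RNA at 0.0395, Atf5 in polysome RNA at 0.001, and the Atf4 ratios at 0.0549 (monosome) and 0.0427 (total). The Atf4 ratio to monosome was 0.002 without scaling. The cause was not tested.

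The counts of all genes between genotypes were less stable. In total RNA (2 genes) they were 1 with no filter, with the block and with the compared groups alone, 34 with DESeq2 and 67 with voom. In polysome RNA (2 genes) they were 5 with RLE factors and with no filter, 9 with the stricter filter and with the block, 49 with DESeq2, 26 with voom and 8 with the compared groups. In monosome RNA (32 genes) they were 60 with the block, 112 with DESeq2, 15 with voom and 10 with the compared groups. The polysome-to-monosome ratio (7 genes) gave 26 with DESeq2 and the polysome-to-total ratio (0 genes) gave 3 with DESeq2, 1 with voom and 1 with the compared groups. With 1 library left out the counts ranged from 1 to 6 in total, 1 to 6 in polysome and 30 to 71 in monosome RNA, 6 to 19 and 0 to 4 for the ratios. Counts over 1.5 times off came in total RNA without KO total replicate 1 (6) or 3 (5), WT total replicate 2 (1) or KO total replicate 2 (1). In polysome RNA they came without WT polysome replicate 3 (6), 1 (1) or 2 (1), or KO polysome replicate 1 (5) or 3 (4), and in monosome RNA without WT monosome replicate 1 (71) or 2 (56) or KO monosome replicate 3 (52). For the ratio to monosome they came without any monosome library other than WT monosome replicate 3 (12 to 19), and for the ratio to total without KO total replicate 1 (4) or 3 (3) or any KO polysome library (1 each).

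Leaving out a library turned the sign of 25 member values, none past the threshold with or without it, on the log2 scale. For polysome vs monosome RNA in WT the ranges were -0.0843 to 0.0429 (Atf4), -0.0484 to 0.0512 (Cebpg). For polysome vs monosome RNA in KO-labelled libraries the range was -0.0753 to 0.0538 (Atf4). For polysome vs total RNA in KO-labelled libraries the range was -0.0073 to 0.35 (Ppp1r15a). For KO vs WT in total RNA the ranges were -0.0729 to 0.0393 (Atf3), -0.0384 to 0.0992 (Ddit3), -0.18 to 0.17 (Ppp1r15a), -0.0023 to 0.0898 (Ppp1r15b), -0.0533 to 0.16 (Trib3). For KO vs WT in polysome RNA the ranges were -0.0053 to 0.0768 (Atf3), -0.13 to 0.0307 (Atf5), -0.10 to 0.0031 (Ddit3). For KO vs WT in monosome RNA the ranges were -0.23 to 0.0347 (Atf5), -0.34 to 0.0828 (Ppp1r15a), -0.11 to 0.0469 (Ppp1r15b), -0.19 to 0.0317 (Cebpb), -0.0477 to 0.0518 (Cebpg), -0.0156 to 0.63 (Trib3). For KO vs WT difference of polysome-to-monosome ratio the ranges were -0.0718 to 0.0747 (Atf4), -0.0811 to 0.18 (Atf5), -0.0863 to 0.13 (Cebpb), -0.33 to 0.32 (Trib3). For KO vs WT difference of polysome-to-total ratio the ranges were -0.0012 to 0.10 (Atf3), -0.074 to 0.0706 (Atf4), -0.0644 to 0.0189 (Cebpg).

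The labels do not say that replicate numbers pair libraries, and the rule that every same-numbered pair correlate over 0.1 was not met: deviations correlated at -0.0892 to 0.189 (median 0.0206), over 0.1 in 5 of 45 pairs. As a hint from the data, each of the 6 total libraries correlated best with the same-numbered polysome library of its genotype (0.0476 to 0.189, against -0.204 to 0.0617 for the 12 other pairs). With the number as a replicate block the members past the threshold were 5 (WT) and 5 (KO-labelled) against monosome RNA and 6 and 5 against total RNA, the one difference being Chac1 in WT (adjusted p = 0.063), and 0 between genotypes. That block joins the same number across the genotypes, so it does not model a pairing of fractions within a genotype. The filter of at least 5 CPM removed Chac1, so it has no value there. Chac1 and Trib3, at 21 to 115 and 22 to 299 counts a library, set the limit of depth.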
